A study of Mus musculus with 8 samples.

Results

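Among 8381 cells of the E14.5 forelimb library that passed the quality filter, 539 (6.43%, 95% interval 5.92 to 6.98%) held at least 1 UMI of at least 4 of 7 genes (*Prss12*, *Dkk2*, *Dmrt2*, *Npr3*, *Pappa*, *Ntrk3* and *Barx1*). These 539 cells, called members below, are described against the other 7842 cells of the same library. A UMI (unique molecular identifier) marks 1 captured transcript, and the filter kept cells with at least 3000 UMIs of which at most 10% were mitochondrial. The library is 1 of 8 from embryonic mouse forelimbs, which hold 53085 filtered cells in all and follow the descendants of embryonic cells that expressed *Hic1*, a transcriptional repressor. The embryos of the 6 sorted libraries were *Hic1* CreERT2/CreERT2; Rosa26 LSL tdTomato/tdTomato on a C57BL/6J background. Tamoxifen (7.5 mg) was given to the dams by gavage at embryonic day 10, and tdTomato then labels the cells with *Hic1*-driven recombinase at that time together with their progeny. Both *Hic1* alleles carry CreERT2 in every sorted embryo, so no sorted library has an unmodified *Hic1* locus. Forelimbs of several embryos of both sexes were pooled, and tdTomato+ cells were sorted after removal of cells that carried blood or endothelial surface markers. The other sorted libraries cover the 3 days before (E13.5, then E12.5, then E11.5), 1 library a day, and 1 library each comes from a proximal segment (around the elbow) and a distal segment (lower forearm and hand) of the forelimb at E16.5, and 2 further libraries hold tdTomato+ and tdTomato- cells of E11.5 limbs, whose alleles the labels do not spell out. With 1 library per stage there is no replicate, no test was made, and every interval given is an exact 95% interval that covers counting error only.

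Connective tissue fibroblasts of the limb lay down the loose matrix of fascia, muscle sheaths and dermis. As they mature they take up genes of interstitial matrix such as *Dcn*, *Lum* and *Postn*, and surface or secreted proteins such as Cd34, Dpt and Clec3b, whereas cartilage cells build a matrix of type II and type IX collagen. The 7 genes used to choose the cells encode signalling and patterning proteins of different families. *Prss12* encodes neurotrypsin, a secreted serine protease that cleaves agrin. *Dkk2* encodes a secreted modulator of Wnt signalling that binds the Lrp5 and Lrp6 co-receptors, *Npr3* the clearance receptor for natriuretic peptides, *Pappa* a secreted metalloprotease that cleaves an IGF binding protein, and *Ntrk3* the receptor of neurotrophin-3. *Dmrt2* and *Barx1* encode transcription factors, of the doublesex-related and the homeobox families. In GENCODE M21 on GRCm38, *Prss12* (chr3:123446913-123506597) and *Dkk2* (chr3:132085292-132180304) lie on the same chromosome and strand, and *Dmrt2* (chr19:25672411-25678991), *Npr3* (chr15:11839896-11907287), *Pappa* (chr4:65124174-65357509), *Ntrk3* (chr7:78175959-78738012) and *Barx1* (chr13:48662998-48666507) on others.

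The 7 genes chose the members, so their levels are a description. Levels are given as CPM, the UMIs of a gene summed over a group of cells and scaled to the same standard total in each group. *Dkk2* was found in 536 members (99.4%) and in 45.4% of other cells, at 515 against 125 CPM. *Prss12* was found in 56.0% of members and 9.45% of other cells, at 107 against 16.2 CPM. *Dmrt2* was found in 54.9% against 6.07%, *Npr3* in 50.8% against 6.41%, *Ntrk3* in 50.6% against 7.71%, *Barx1* in 55.5% against 11.5% and *Pappa* in 69.9% against 13.9%. Apart from *Dkk2*, with a median of 8 UMIs in a member, each gene had a median of 1 UMI per member, and the highest count in any member ran from 9 (*Dmrt2*) to 23 (*Prss12*) for these 6 genes. The members held from 26.2% (*Dkk2*) to 42.1% (*Dmrt2*) of all UMIs of a gene in the library, so the larger part of the transcripts of each gene lay in cells outside the rule. With every cell thinned to 3000 UMIs, the shares were 72.7% against 22.8% for *Dkk2* and between 14.1 and 23.4% against 1.59 to 4.55% for the others. In 70 epithelial-like cells, which should lack these genes and had a median of 22750.5 UMIs, the thinned shares lay between 0% and 4.29%, a few cells at most. For *Npr3* the share of other cells (1.59%) was below that of epithelial-like cells (2.86%), whose UMIs lay at 24.1 CPM in 1 of their 2 clusters and 1.10 CPM in the other, so they give no background level for this gene.

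Depth moved with membership. The members had a median of 17310 UMIs (3526 to 50733) and the other cells 14178.5 (3013 to 60127), and the share of members went from 1.97% of the 1675 shallowest cells to 10.6% of the 1677 deepest. The rule therefore misses shallow cells: at 3000 UMIs only 29 cells (0.346%) held 4 or more of the 7 genes. Mitochondrial shares were alike (medians 3.04 and 3.10%), and at least 3 of 8 mitotic markers were found, at 3000 UMIs, in 11.3% of members (8.77 to 14.3%) and 13.5% of other cells (12.7 to 14.3%). Members were uneven in this: cluster 5 (described below) held 7 such cells, all among its 420 cells that were not members. *tdTomato* stood at 437 CPM in members and 427 CPM in the rest, and *Hic1* at 31.3 and 27.2 CPM. Among cells with Y-linked UMIs and no *Xist* 7.42% were members, and among cells with *Xist* and no Y-linked UMIs 5.29%. The share was highest, at 8.05% (6.59 to 9.70%), in the 1243 cells with both or neither. Scrublet marked 0 of 8381 cells as doublets, too few for the caller to have worked, so doublets were not removed. The E14.5 library shared at most 25 barcodes with any other library.

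Levels changed by degrees with the number of rule genes, and for some genes by over 2-fold at the threshold. Of 8381 cells, 2949 held none of the 7 genes, 2689 held 1, 1426 held 2, 778 held 3, 378 held 4, 126 held 5, 30 held 6 and 5 held all 7. *Wnt2*, which took no part in the rule, stood at 1.02 CPM in cells with none of the genes, 2.67 with 1, 10.0 with 2, 25.9 with 3, 55.4 with 4 and 62.4 with 5 or more. *Mfap5* went from 8.55 CPM with none to 98.7 with 3, 119 with 4 and 187 with 5 or more. *Dpt* changed little across the threshold, at 49.6 CPM with 3 genes, 51.9 with 4 and 49.7 with 5 or more, after 2.86 with none. *Msx1*, in contrast, was at 40.6 CPM with none, 63.4 with 1, 21.7 with 3, 10.5 with 4 and 2.59 with 5 or more. The median depth also went up along this order, from 13319 UMIs with none of the genes to 15781 with 3 and 17006 with 4.

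**Figure D1:**
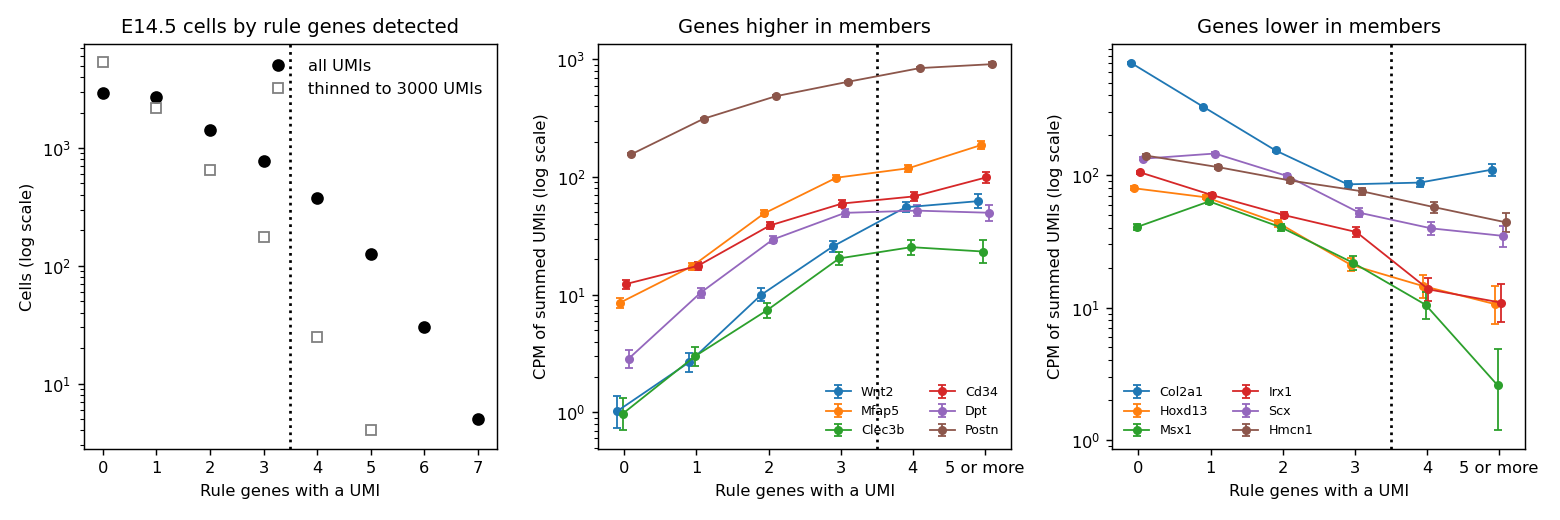
Left, number of E14.5 cells (log scale) by how many of the 7 rule genes had a UMI, with all UMIs and at 3000 UMIs. Middle and right, CPM (log scale) of 6 genes higher and 6 genes lower in members, summed over cells by the number of rule genes, bars being exact 95% Poisson intervals. The dotted line marks the threshold of 4 genes, across which *Wnt2* goes from 25.9 to 55.4 CPM.

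To measure each of the 7 genes apart from its own part in the choice, cells were chosen by at least 4 of the other 6 genes. In such cells all 7 genes stood above the other cells by more than 2-fold. The 7 genes were chosen together with earlier results of this series known, so these values too are a description and give no independent support. *Dkk2* was at 581 CPM in 164 cells chosen without it and 144 CPM elsewhere, a fold of 4.04 (3.86 to 4.23). *Npr3* followed at 3.42-fold (2.93 to 3.98) and *Dmrt2* at 3.41-fold (2.95 to 3.93). *Ntrk3* (2.81-fold), *Prss12* (2.74-fold), *Barx1* (2.71-fold) and *Pappa* (2.65-fold) were close to each other, with overlapping intervals. When the UMIs of each cell were instead split at random into 2 parts, the rule was applied to the first part (246 members) and levels were taken from the second, the folds ran from 3.82 (*Dkk2*) to 6.58 (*Ntrk3*). In that split each gene still helped to choose the cells it was measured in, so only counting error was set apart and the folds are a description.

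**Figure D2:**
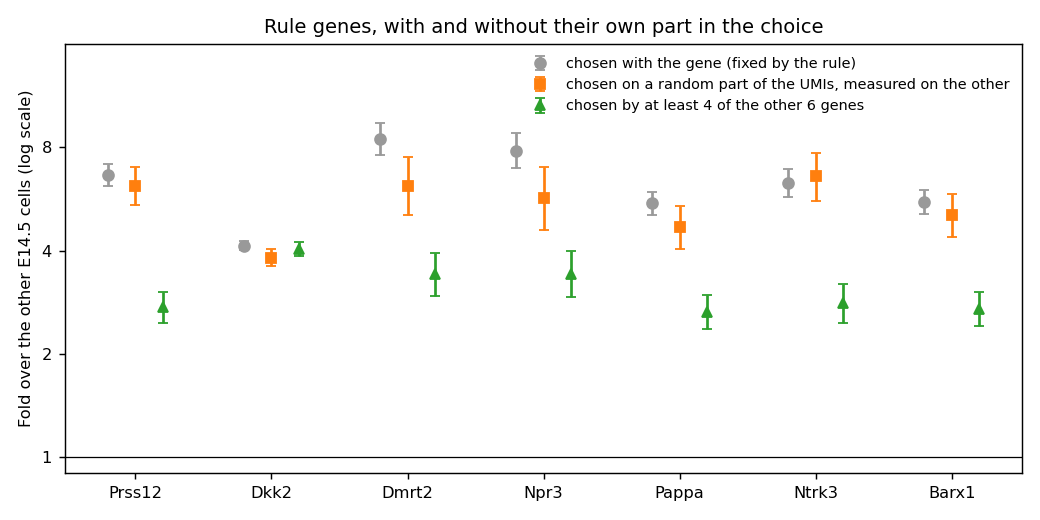
Fold of each rule gene over the other E14.5 cells (log scale) with exact 95% intervals, for members chosen with the gene, for members chosen on a random part of the UMIs and measured on the other part, and for cells chosen by at least 4 of the other 6 genes. Only the last of these leaves the gene out of the choice, and all such held-out folds lie between 2.65 and 4.04.

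Outside the 7 genes, among genes at 20 CPM or more, *Wnt2*, *Mfap5*, *Clec3b* and *Apod* had the highest ratios in members. The cartilage genes *Matn1* and *Col9a1* had the lowest, followed by *Nrgn*, *Mia* and *Col9a3*. Of 8445 genes at 10 CPM or more in either group, 79 (0.935%) were at least 2-fold higher in members and 94 (1.11%) at least 2-fold lower, on the ratio of CPM + 1. The median log2 ratio over all 8445 genes was -0.02. Only 7 genes were at least 4-fold higher, whereas 23 were at least 4-fold lower. With a limit of 20 CPM in the higher group, the first in the order was *Wnt2*, a secreted Wnt ligand, at 57.7 CPM in members (612 UMIs) and 6.14 CPM elsewhere (758 UMIs), a fold of 9.39 (8.42 to 10.5). It was found in 39.5% of members and 4.88% of other cells, and at 3000 UMIs in 16.7%, 1.47% and, of epithelial-like cells, 1.43%. The epithelial-like share is 1 of 70 cells, and *Wnt2* was not limited to the members: it stood at 42.9 CPM in the 420 other cells of the cluster that held most members. With every cell thinned to 3000 UMIs and the rule applied again, which leaves 29 members, the log2 ratio of *Wnt2* was 0.20 in place of 3.04. That ratio rests on very few *Wnt2* UMIs, so it does not show whether the difference shrinks at equal depth. Over all 539 members the thinned shares above still differed, at 16.7% against 1.47%.

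Among the 15 highest were 5 matrix or matrix-binding genes, chosen for description after their values were seen. *Mfap5*, which encodes a microfibril glycoprotein, was at 141 against 29.7 CPM (4.75-fold, 4.47 to 5.05). *Clec3b*, which encodes tetranectin, a plasminogen-binding protein, was at 24.7 against 5.11 CPM (4.83-fold, 4.17 to 5.59). *Dpt*, for the matrix protein dermatopontin, was at 51.2 against 15.9 CPM (3.21-fold), and *Col6a6*, for a chain of type VI collagen, at 29.96 against 8.81 CPM (3.40-fold). *Smoc2*, for a calcium-binding matrix protein, was at 347 against 119 CPM (2.92-fold). These matrix genes were patchy among members: *Mfap5* was found in 48.2% of them, *Dpt* in 26.3% and *Clec3b* in 23.2%, whereas *Smoc2* was found in 82.4%.

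The other genes of the 15 highest encode proteins of several kinds. *Apod*, for a lipid carrier, was at 124 against 28.8 CPM (4.29-fold, 4.03 to 4.57), and *Clu*, for a secreted chaperone, at 130 against 33.4 CPM (3.90-fold). *Kitl*, for the ligand of the Kit receptor, was at 85.9 against 26.5 CPM (3.24-fold), and *Sema3d*, for a secreted guidance protein, at 28.1 against 9.18 CPM (3.06-fold). *Cd34*, a sialomucin of fibroblast, endothelial and blood progenitor surfaces, was at 78.7 against 24.6 CPM (3.20-fold, 2.96 to 3.45). Among genes for intracellular proteins, *Akap12*, for a scaffold of protein kinase A, stood at 240 against 78.6 CPM, *S100a6*, for a calcium-binding protein, at 449 against 150 CPM, and *Id4*, for an inhibitor of helix-loop-helix factors, at 75.9 against 24.5 CPM. *AW551984* completed the 15 highest at 82.1 against 27.9 CPM.

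The 15 lowest ratios, with the same limit of 20 CPM, included many cartilage genes. *Matn1*, for the cartilage protein matrilin-1, was at 6.97 CPM in members and 78.7 CPM elsewhere, 11.3-fold lower (8.98 to 14.4). This size varied with the cells used: the log2 ratio of -3.32 became -5.19 without the cells above the 95th percentile of UMIs and -5.43 with split UMIs, and that of *Cytl1* went from -2.10 to -3.95 and -4.50. Most of the other cartilage genes moved the same way by over 1.5 times under one or both of these settings, as *Col2a1* (-2.05 to -2.93 and -2.65), *Acan* (-2.05 to -2.81 and -3.21) and *Mia* (-2.72 to -3.53 and -3.74) did, and without the deepest cells so did *Nrgn* (-2.72 to -3.86) and *Irx1* (-2.46 to -3.34). Some ratios shrank instead. Split UMIs gave -1.87 for *Irx1* and -1.59 for *Rspo1* (from -2.29). With 3 genes needed, *Nrgn* was at -1.97, *Irx1* at -1.55, *Rspo1* at -1.47 and *Msx1* at -1.59 (from -2.41), and with 5 needed *Cytl1* was at -1.21. *Col9a1* (7.45-fold lower) and *Col9a3* (6.62-fold lower) encode chains of type IX collagen, *Col2a1* (95.2 against 397 CPM, 4.18-fold lower) the chain of type II collagen and *Acan* (4.78-fold lower) aggrecan. *Mia*, *Cytl1* and *Matn4*, secreted by cartilage cells, were 7.23-, 4.81- and 4.15-fold lower. The others were the Iroquois factor genes *Irx1* (5.84-fold lower) and *Irx2* (5.02-fold lower), *Rspo1*, for a Wnt agonist (5.55-fold lower), the homeobox genes *Msx1* (5.84-fold lower) and *Hoxd13* (4.67-fold lower), and the genes of the calcium-pathway proteins Calb1 (6.32-fold lower) and Nrgn (7.24-fold lower). A few members carried many transcripts of a cartilage gene: the highest *Col2a1* count in a member was 227 UMIs, while the median member had 0. With the cells of clusters named chondrocyte-, tenocyte- and dermal fibroblast-like left out, 83 genes were 2-fold higher and 89 lower, of which 68 and 72 were among the 79 and 94. Cells of these kinds remained in unnamed clusters. Cluster 8 (511 cells) had 6 of 10 chondrocyte markers raised, and cluster 15 (211 cells) had *Irx1*, *Rspo1* and *Irx2* among its leading genes.

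**Figure D3:**
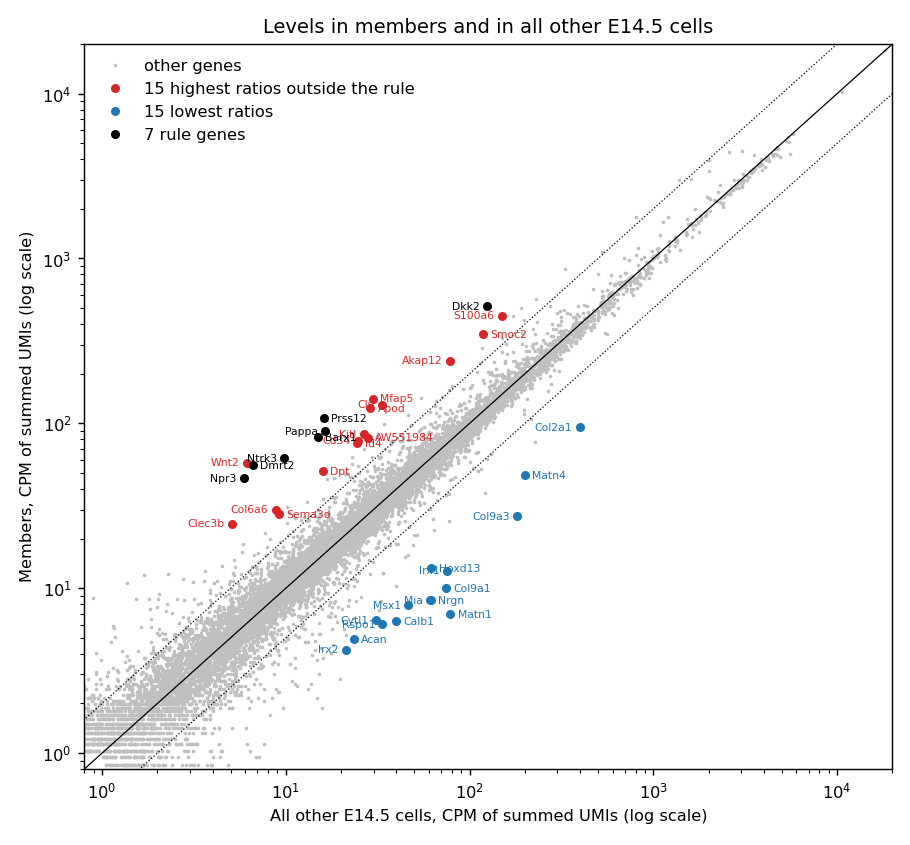
CPM of summed UMIs (log scales) in the 539 members against the 7842 other E14.5 cells, 1 point per gene. The solid line marks equal levels and the dotted lines 2-fold, and the 7 rule genes, the 15 highest and the 15 lowest ratios are named, with *Wnt2* lying beside the rule genes and *Matn1* having the lowest ratio of those named.

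The name fibrogenic progenitors was checked against markers the study uses for that state, *Osr1*, *Rspo3* and *Hmcn1*, and the 3 did not go one way. *Osr1*, for a zinc finger factor of irregular connective tissue, was 1.66-fold higher (171.9 against 103.5 CPM, 1.58 to 1.74), short of 2-fold. *Rspo3*, for a Wnt agonist, was close over all members, at 108 against 120 CPM, but at 51.1 CPM in the members of one cluster and 186 CPM in those of another (clusters 5 and 7, described below), and its log2 ratio of -0.15 turned to 0.25 when 3 genes were enough for membership and to 0.091 with the other cells weighted to the members' depth. *Hmcn1*, for the matrix protein hemicentin, was lower in members, at 52.9 against 115 CPM (0.461-fold, 0.423 to 0.501), but its log2 ratio of -1.10 fell short of 2-fold at -0.86 when 3 genes were enough for membership, -0.84 with the other cells weighted to the members' depth and -0.86 with thinned cells. Markers of maturing fibroblasts were higher. Of the 7 of 11 that reached 10 CPM, 5 (*Mfap5*, *Clec3b*, *Cd34*, *Dpt* and *Fap*) were 2-fold higher and none lower, where 0.935% of all genes were higher. The median log2 ratio of the 7 was 1.62, and *Fap*, for a membrane serine protease, stood at 49.2 against 20.9 CPM. Of 3 fascia markers, 2 of which are shared with that list, *Mfap5* and *Clec3b* were higher. *Pi16* and *Ly6a*, which mark later fibroblasts, were near 0, with 6 and 8 UMIs in all members together. Early progenitor markers showed no difference of 2-fold in any of 8, and their median log2 ratio was -0.28. In the study *Osr1*, *Rspo3* and *Hmcn1* marked a cluster among cells of E11.5 to E16.5, whereas here the other cells are of E14.5 only. The ratios therefore do not decide whether the members are fibrogenic progenitors, and the cells are called by the rule that chose them. *Prss12* and *Dmrt2*, after which they have also been named, had no UMI in a large part of the members, and *Pappa* was found in more of them.

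Markers of other tissues were counted in the same way, beside shares over all genes of 0.935% higher and 1.11% lower. Of 10 chondrocyte markers 8 were 2-fold lower and none higher, and of 4 perichondrial markers counted 3 were lower. Of 8 tenocyte markers 4 were lower (*Scx*, *Tnmd*, *Mkx* and *Fmod*), while *Kera*, for the proteoglycan keratocan, was higher at 285 against 117 CPM, but this lay in the 227 members of the cluster that held most of them (511 CPM), the 312 others standing at 164 CPM. *Scx*, the transcription factor gene of tendon progenitors, was at 38.1 against 122 CPM. Of 9 dermal fibroblast markers counted 4 were lower (*Irx1*, *Rspo1*, *Lef1* and *Nkd2*) and none higher. In the 1043 cells with a *Prss12* UMI, in contrast, *Irx1* (95.7 against 65.7 CPM) and *Rspo1* (51.0 against 28.0 CPM) were higher than in cells without one. With each of the other rule genes taken alone, both were lower. Of 4 pericyte markers counted only *Des*, for desmin, was higher (14.8 against 5.21 CPM). Myogenic markers summed to 3.39 CPM in members and 2.24 CPM elsewhere with *Myod1* and *Pax7* at 0 UMIs in members, immune markers to 8.10 and 10.1 CPM with *Ptprc* at 0, erythroid markers to 0.659 and 0.802 CPM and glial markers to 3.67 and 5.96 CPM with *Sox10* at 0. Muscle fibre genes summed to 19.9 and 17.5 CPM, endothelial markers to 22.3 and 21.2 CPM, and perineurial markers to 83.3 and 89.5 CPM. Epithelial markers summed to 59.9 CPM in members, 2 of which lay in an epithelial-like cluster, and 110.3 CPM elsewhere, and 4 of 5 counted were lower. Their part in the other differences was not tested, beyond the counts without epithelial-like cells (79 higher, 88 lower). None of 8 mitotic markers differed by 2-fold over all members, but they were uneven among members. *Ube2c* stood at 8.38 CPM in the 227 members of cluster 5 (described below) and 205 CPM in the 312 others, and *Ccnb1* at 2.43 and 58.4 CPM.

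The pathways of the 7 genes are read against the same shares of all genes, 0.935% higher and 1.11% lower. Of 6 Wnt ligand genes counted, *Wnt2* alone was 2-fold higher. *Wnt5a*, the ligand gene of limb outgrowth, stood at 182 against 139 CPM and *Wnt4* at 18.4 against 36.7 CPM. Of 10 secreted Wnt modulators *Sfrp4* was higher (11.3 against 2.75 CPM, 4.11-fold, 3.31 to 5.08), and *Rspo1* and *Dkk3* were lower. *Sfrp1*, for another Wnt antagonist, was at 78.4 against 41.6 CPM. Of 9 effectors and targets of the pathway 3 were lower and none higher: *Sp5* (1.88 against 15.8 CPM), *Lef1* (3.96 against 13.9 CPM) and *Nkd2* (8.10 against 18.2 CPM). Of 14 Wnt receptor genes 1 was lower, *Fzd9*, and none higher.

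Of 14 genes of the insulin-like growth factor axis, in which *Pappa* acts, *Igf1* alone was 2-fold higher, at 570 against 229 CPM (2.49-fold, 2.42 to 2.56), with UMIs in 85.0% of members and 51.7% of other cells. *Igfbp4*, for a binding protein that *Pappa* cleaves, was at 1790 against 1204 CPM. None of 3 natriuretic peptide genes counted beside *Npr3* differed by 2-fold, with *Npr2*, for the receptor of C-type natriuretic peptide, at 10.4 against 8.09 CPM. Of 8 neurotrophin and GDNF genes beside *Ntrk3*, *Nrtn* was lower and none higher. *Ntrk2*, for the receptor of brain-derived neurotrophic factor, was at 55.0 against 30.3 CPM. *Agrn*, for the substrate of neurotrypsin, stood at 19.2 against 20.01 CPM, and *Musk*, for its receptor kinase on muscle, had 0 UMIs in members. No other member of the *Dmrt* and *Barx* families reached 10 CPM.

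Other signalling lists were set against the same shares. None of 11 TGF-beta, 8 hedgehog or 6 Notch genes counted passed 2-fold. *Bmp5* and *Bmper* were lower among 17 BMP and GDF genes, *Etv4* and *Fgfr2* among 11 FGF genes, *Aldh1a2* and *Aldh1a3* among 12 retinoic acid genes and *Pdgfc* among 5 PDGF genes, with none higher. Of 3 chemokine genes counted *Cxcl12*, for the ligand of Cxcr4, was 2-fold higher, at 448 against 171 CPM (2.62-fold, 2.53 to 2.70). Of 20 guidance genes *Sema3d* was higher and *Plxna4* lower, and none of 17 adhesion genes, 5 adipogenic regulators or 14 immediate early genes passed 2-fold. *Dlk1*, for a membrane protein of preadipocytes, was just short of it, at 3949 against 2002 CPM (1.97-fold).

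A few positional genes of the limb passed 2-fold, where 0.935% of all genes were higher and 1.11% lower. *Hoxa11*, a factor gene of the forearm segment, was higher at 62.6 against 29.4 CPM (2.13-fold, 1.95 to 2.31), but this lay in cluster 5 (described below), whose members had 116 CPM while the 312 other members had 33.8 CPM. *Shox2*, a factor gene of the proximal limb, was higher at 500 against 189 CPM (2.64-fold). *Hoxa13* (4.05 against 17.6 CPM), *Hoxd13* (13.3 against 62.0 CPM) and *Hoxd12* (7.91 against 17.2 CPM), genes of the digit-forming segment, were lower. Over the lists, 1 of 4 *HoxA* genes counted was higher and 1 lower, and of 6 *HoxD* genes 2 were lower, while no *HoxB* or *HoxC* gene reached 10 CPM. Of 21 limb position factors *Shox2* was higher and 6 lower (*Msx1*, *Pax1*, *Irx3*, *Irx5*, *Lhx9* and *Lhx2*). Of 10 factors of muscle connective tissue *Hoxa11* alone passed 2-fold, and *Tbx5*, for a forelimb factor, was at 71.2 against 70.1 CPM. Of 24 mesenchymal transcription factors 4 were lower (*Foxc1*, *Scx*, *Mkx* and *Six2*) and none higher.

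Some matrix genes of loose connective tissue were higher, to be read beside 0.935% of all genes higher and 1.11% lower. Of 25 proteoglycans and glycoproteins 4 were 2-fold higher: *Mfap5*, *Postn* (866 against 330 CPM), *Dcn* (1797 against 801 CPM) and *Lum* (1098 against 528 CPM). *Fmod* was lower. None of 16 interstitial collagens passed 2-fold, *Col3a1* standing at 3379 against 2007 CPM and *Col1a1* at 2981 against 2754 CPM. *Nid2*, for a basement membrane linker, was higher at 78.0 against 37.1 CPM as 1 of 10 basement membrane genes. Of 19 proteases and inhibitors 2 were higher, *Adamts5*, for an aggrecan-cleaving protease (70.4 against 26.5 CPM), and *Adamts17* (24.9 against 10.1 CPM). Median log2 ratios were 0.27 over both the proteoglycan and the protease lists and 0.24 over the collagens.

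How closely the members lay together by their other genes depended on how finely the cells were divided. Cells were clustered on 2000 variable genes from which the 7 rule genes were left out, and the members fell into 18 of 21 clusters. Cluster 5 held 227 of them (42.1%), while the leading cluster held 72.2% at a resolution of 0.5 and 25.8% at 2, and cluster 7 held 124 (23.0%), so that 351 members (65.1%) lay in 1160 cells, of which 30.3% were members (27.6 to 33.0%), against 2.60% of the other 7221 cells (2.25 to 2.997%). Neither cluster could be named from the markers, for which 3 had to be raised. Both came closest to the fascia markers, with 2 of 3 raised. A further 55 members were in a mitotic-like cluster, 30 in the unnamed cluster 4, 24 in a dermal fibroblast-like cluster and 14 in a tenocyte-like cluster, and single cells lay in endothelial- and pericyte-like clusters. Among the nearest neighbours of a member by those genes, 33.2% were members on average, against 4.59% for other cells. In all 15 genes with the highest ratio, members in cluster 5 stood above the other 420 cells of that cluster, but none by 2-fold: *Wnt2* was at 76.2 against 42.9 CPM and *Cd34* at 115 against 88.5 CPM. Against that cluster alone, 7 genes in all were 2-fold higher in its members and 9 lower.

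Members of clusters 5 and 7 carried different rule genes. *Prss12* was at 212 CPM in the 227 members of cluster 5 and 45.7 CPM in the 124 of cluster 7 (4.63-fold), *Npr3* at 82.4 against 25.8 CPM (3.20-fold) and *Dmrt2* at 82.7 against 47.9 CPM (1.73-fold). *Barx1* went the other way, at 128 CPM in cluster 7 and 47.6 CPM in cluster 5 (2.70-fold), as did *Ntrk3* (113 against 48.9 CPM, 2.302-fold) and *Pappa* (139 against 80.8 CPM, 1.72-fold). *Dkk2*, which nearly all members had, hardly differed among them, at 630 and 597 CPM. None of these genes entered the clustering, but they chose the members, and needing 4 of 7 sets the genes against each other, so these values are a description. Over all 647 cells of cluster 5 and all 513 of cluster 7, members or not, *Dkk2* stood at 543 and 383 CPM. *Prss12* (157 and 30.5 CPM), *Npr3* (51.6 and 11.2 CPM) and *Dmrt2* (53.9 and 21.7 CPM) were higher in cluster 5. *Barx1* (25.8 and 67.8 CPM), *Ntrk3* (32.7 and 63.6 CPM) and, by less, *Pappa* (57.9 and 66.8 CPM) were higher in cluster 7. Of 45 combinations of rule genes among members the commonest, *Dkk2 Pappa Ntrk3 Barx1* and no other, was found in 65 cells, of which 30 were in cluster 7 and 8 in cluster 5. The next, *Prss12 Dkk2 Dmrt2 Npr3* and no other, was found in 45 cells, of which 38 were in cluster 5 and 1 in cluster 7.

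Pairs of rule genes were also counted over all E14.5 cells at 3000 UMIs. *Prss12* and *Npr3* were found together in 45 cells, where independent detection would give 9.26, a ratio of 4.86. *Ntrk3* and *Barx1* were found together in 36 cells against 12.7 (2.84). Among *Prss12*, *Npr3* and *Dmrt2* the 3 ratios ran from 1.99 to 4.86, and among *Pappa*, *Ntrk3* and *Barx1* from 2.19 to 2.84. The 9 pairs between these groups had a median ratio of 1.17, with *Npr3* and *Barx1* at 0.894 and *Dmrt2* and *Pappa* highest at 2.70. The pairs did not follow this grouping cleanly, since *Dmrt2* and *Pappa* exceeded *Dmrt2* and *Npr3* (1.99), and as it was made after the values were seen it adds no support to the split by cluster.

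Other genes differed between these members too, and since the clusters were made from them their values are a description. *Hoxa11* was at 116 CPM in the members of cluster 5 and 17.2 CPM in those of cluster 7, *Kera* at 511 and 113 CPM and *Mfap5* at 231 and 85.0 CPM. Higher in cluster 7 were *Dpt* (85.9 against 27.0 CPM), *Rspo3* (186 against 51.1 CPM), *Cxcl12* (753 against 398 CPM) and *Igf1* (913 against 510 CPM). *Wnt2* was close, at 76.2 CPM in cluster 5 and 93.6 CPM in cluster 7, and so were *Apod* (162 and 152 CPM) and *Clu* (167 and 172 CPM). The cartilage genes were low in both, *Col2a1* at 36.8 and 38.4 CPM, compared with 73.8 CPM in the 55 members of the mitotic-like cluster. The 133 members in all other clusters had 219 CPM.

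**Figure D4:**
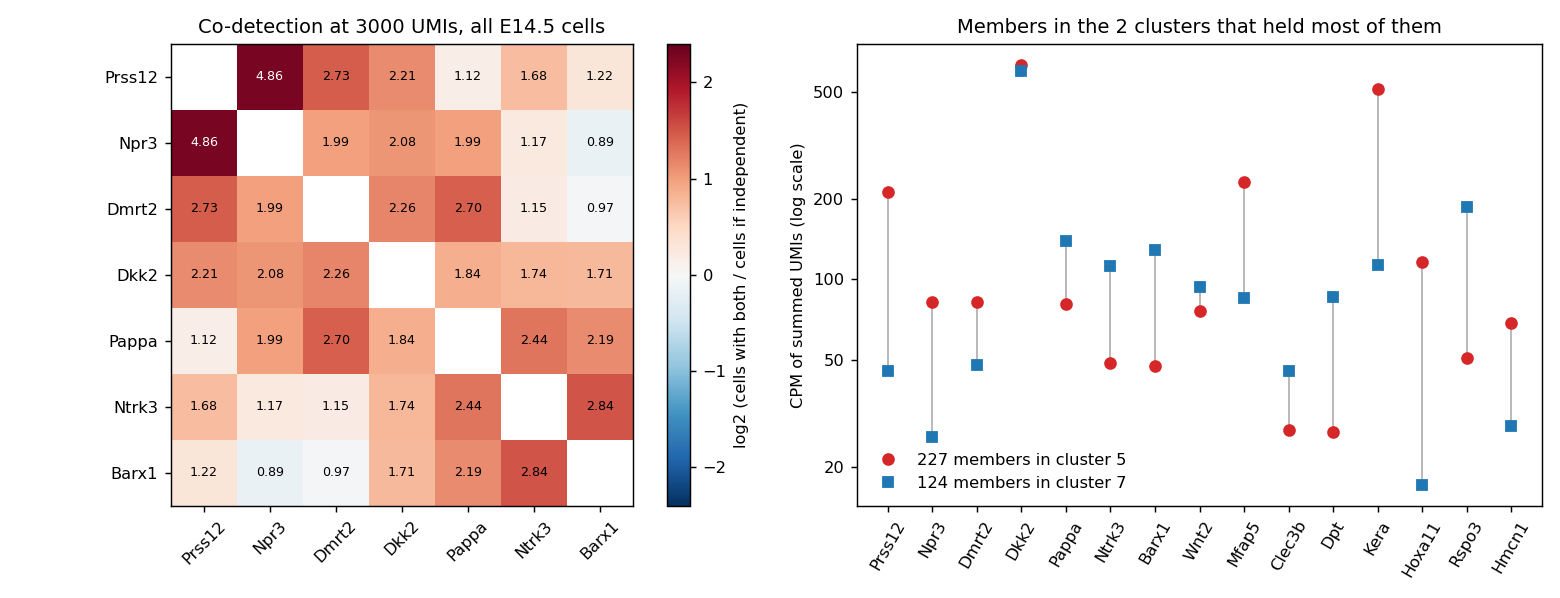
Left, cells with both of 2 rule genes divided by the number under independent detection, over 8381 E14.5 cells at 3000 UMIs (numbers are ratios, colour is log2). Right, CPM (log scale) of 15 genes in the 227 members of cluster 5 and the 124 of cluster 7, in which *Prss12*, *Npr3*, *Kera* and *Hoxa11* are higher in cluster 5 and *Ntrk3*, *Barx1*, *Dpt* and *Rspo3* in cluster 7.

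The rule was then applied to every library. At 3000 UMIs per cell, 29 of 8381 cells passed at E14.5 (0.346%, 0.232 to 0.497%). The day before, 3 of 6123 did (0.0490%, 0.0101 to 0.143%). The E12.5 library gave 0 of 4714 and the sorted E11.5 library 0 of 3165, for which 3 counts of the total set limits of 0.0636% and 0.0948% (exact upper bounds 0.0782% and 0.116%). In the older limbs 6 of 11109 proximal cells (0.0540%, 0.0198 to 0.118%) and 2 of 8447 distal cells (0.0237%, 0.00287 to 0.0855%) passed. In the E11.5 libraries of both tdTomato+ and tdTomato- cells 0 of 5464 and 0 of 5682 cells passed. With all UMIs used the E14.5 share of 6.43% (median depth 14333 UMIs) compares with 0.457% at E13.5 (6788 UMIs), 0.0636% at E12.5 (8683 UMIs), 3.67% in the proximal segment (18473 UMIs) and 1.78% in the distal segment (17275 UMIs). E14.5 was thus highest on both scales, and the E16.5 libraries were lower although deeper. The E14.5 forelimbs were not divided, whereas the E16.5 segments began at the distal upper arm. Stage and sampled part of the limb therefore cannot be told apart between E14.5 and E16.5. The reagent kit changed from v2 to v3 between E13.5 and E14.5, so kit and stage cannot be told apart there. Counts of the distal E16.5 library came from Cell Ranger 6.0.1 and those of the other sorted libraries from 3.0.2, so version and segment cannot be told apart either. The study digested limbs with Dispase up to E12.5 and with collagenase and Pronase from E13.5.

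Levels of the 7 genes over whole libraries followed a like course for most. *Prss12* was at 0.603, 2.96, 7.82 and 23.4 CPM from E11.5 to E14.5, then 12.6 CPM in the proximal and 10.2 CPM in the distal E16.5 segment. *Dkk2* was at 32.1, 63.3, 80.2 and 156 CPM, then 58.3 and 105 CPM. *Barx1* was at 1.37, 5.11, 8.35 and 20.3 CPM, then 11.9 and 4.43 CPM. *Ntrk3* was highest in the distal E16.5 segment, at 20.6 CPM against 13.9 CPM at E14.5. *Mfap5*, in contrast, was at 38.5 CPM at E14.5 and 408 and 320 CPM at E16.5, so its level over the whole library did not follow that of the rule genes.

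The same genes were then measured in cells that passed the rule at E16.5, which are other samples, although the 7 genes were chosen with earlier results of the whole series known. With all UMIs 408 proximal and 150 distal cells passed, and 28 cells at E13.5, too few to describe. All 15 genes with the highest ratio at E14.5 were also higher in passing cells of both E16.5 libraries, 11 of them by 2-fold in the proximal and 5 in the distal segment, with median log2 ratios of 1.29 and 0.89 against 1.64 at E14.5. *Wnt2* was at 77.5 against 25.6 CPM in the proximal segment (3.02-fold, 2.81 to 3.25) and 41.3 against 12.7 CPM in the distal one (3.24-fold, 2.75 to 3.80), smaller folds than the 9.39 at E14.5, where the other cells stood at 6.14 CPM. *Apod* was 3.07- and 3.11-fold higher. *Clu* was closest to the rest, at 1.34-fold in the proximal and 1.28-fold in the distal segment.

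Of the 15 genes with the lowest ratio, 14 were lower in proximal and 15 in distal passing cells, 12 and 13 by 2-fold. The counts of 14 and 15 go by sign alone and include genes named below as too low to compare. *Col2a1* was at 230 against 1840 CPM in the proximal and 150 against 486 CPM in the distal segment. *Calb1* in both segments, and *Hoxd13* (1.73 against 1.69 CPM) and *Msx1* (1.09 against 1.98 CPM) in the proximal one, were too low to compare. In the proximal library 152 of 8302 genes (1.83%) were 2-fold higher and 320 (3.85%) lower, and in the distal one 108 of 8421 (1.28%) and 133 (1.58%). Of the 79 genes higher at E14.5, 36 (45.6%) were higher in the proximal and 22 (27.8%) in the distal segment, which made up 23.7% and 20.4% of the genes higher there. Of the 94 lower ones, 47 (50%) and 46 (48.9%) were lower there, 14.7% and 34.6% of the lower genes of these libraries. Not all could be called: of the 79 genes 70 reached 10 CPM in the proximal and 74 in the distal library, and of the 94 genes 66 and 82.

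*Sfrp4*, the Wnt modulator gene higher at E14.5, was at 57.2 CPM in passing cells of the proximal E16.5 segment against 9.13 CPM elsewhere (6.27-fold), and at 25.1 against 4.25 CPM in the distal one, while E14.5 members had 11.3 CPM. Of the markers of fibrogenic progenitors, *Rspo3* was 1.93-fold higher in proximal passing cells and 1.03-fold in distal ones, *Osr1* 1.497- and 1.49-fold, and *Hmcn1* was at 0.911- and 0.525-fold.

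**Figure D5:**
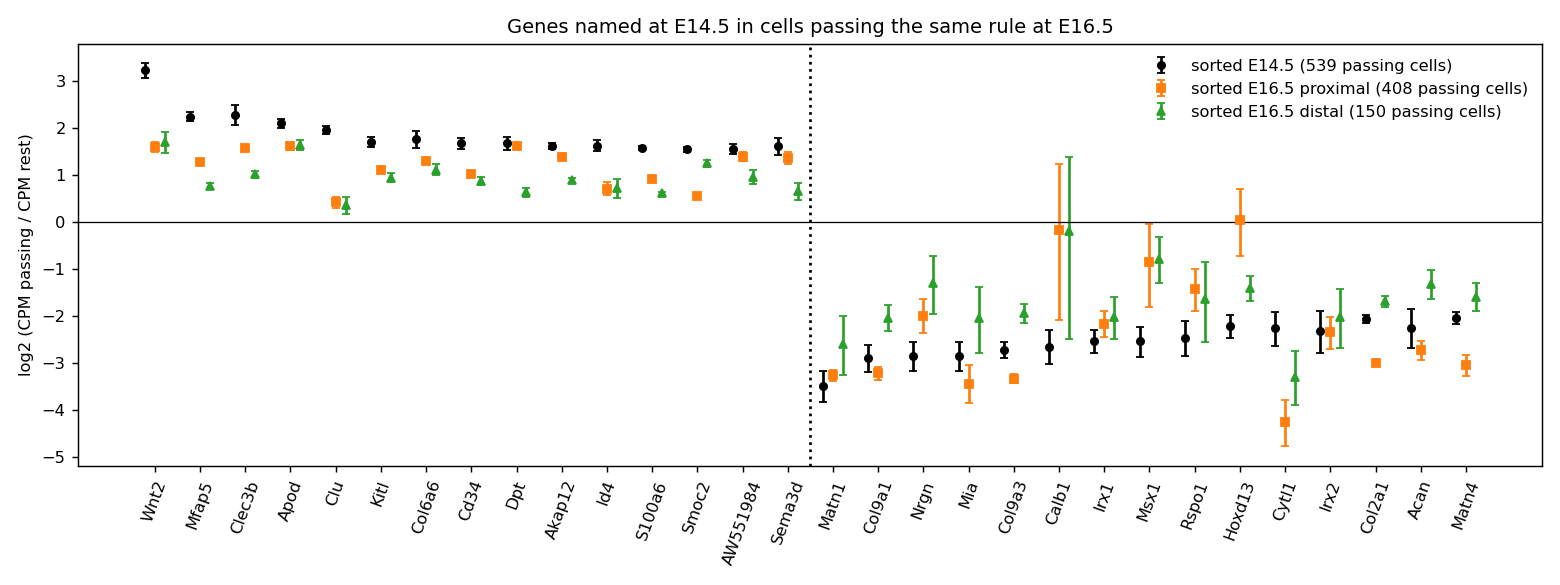
log2 ratio of CPM in cells that passed the rule over all other cells of the same library, with exact 95% intervals, for the 15 genes highest and the 15 lowest at E14.5 (left and right of the dotted line) in the E14.5 library and in both E16.5 segments. All 15 left-hand genes lie above 0 in the 3 libraries, and *Calb1* and proximal *Hoxd13* have intervals that reach 0.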

How the data were processed

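The authors made the deposited matrices, which give UMI counts by gene and barcode without normalization, with 10x Genomics Cell Ranger (3.0.2 in the E14.5 file header, 6.0.1 for the distal E16.5 library) on a modified mm10 reference. Of 9189 E14.5 barcodes (135534751 UMIs), 8381 had 3000 UMIs or more, as in the study, and no more than 10% mitochondrial UMIs, a limit set here. The E14.5 sums were scaled to CPM, and a gene was called at 2-fold on CPM + 1 if either sum reached 10 CPM. The genes named were the 7 rule genes, the 15 highest and 15 lowest ratios (20 CPM or more; no rule, haemoglobin, mitochondrial, sex-linked or transgene rows), up to 4 genes per direction past 2-fold in each list, and markers whose absence is stated. Others, such as *Wnt5a*, *Igfbp4*, *Dlk1* and *Ntrk2*, were added after their values were seen. The members and the 52 gene lists were chosen with earlier results of these data known.

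Intervals were exact: conditional binomial for folds, Clopper-Pearson for shares, Poisson for CPM (scipy 1.17.1). E14.5 cells were clustered with scanpy 1.11.5 (2000 variable genes, 50 components, 25 neighbours, Leiden resolution 1). A cluster was named after a class with 3 or more markers raised 2-fold and found in 10% of its cells, unless another class had more markers among its 10 leading genes. Only the fold intervals, the 2-fold counts and the thinning were tested on simulated data.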

Additional observations from a re-analysis of the deposited data

Results flagged for a closer look

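*Hoxd13* had a log2 ratio of -2.14 between passing cells and the rest at E14.5 and of 0.021 in the proximal E16.5 segment, where it stood at 1.73 and 1.69 CPM, too low to give it a direction (fold 1.02, 0.609 to 1.62). In the distal E16.5 segment the ratio was -1.38 (29.8 against 79.1 CPM). The difference between the stages was not tested, since each is 1 library.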

How the results depend on the processing

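No paired analysis was possible because each sorted stage is 1 library and no test was made. A rule on detected genes finds deeper cells. The 15 highest and 15 lowest genes kept their direction, all at 2-fold or more, in every alternative below but those within the leading cluster, and thinning to 3000 UMIs (29 members), where *Wnt2* (0.20) and *Irx2* (-0.68) kept their sign but not 2-fold on the log2 scale. Those thinned ratios of *Wnt2* and *Irx2* rest on very few UMIs. Members made up 15.7% of cells at 3 genes, 1.92% at 5, 0.346% thinned to 3000 UMIs, 7.42% among Y-positive and 5.29% among *Xist*-positive cells, and, in alternatives chosen after seeing the data, 7.84% without chondrocyte-, tenocyte- and dermal fibroblast-like clusters and 5.80% without cells above the 95th percentile of UMIs. The counts of 79 higher and 94 lower genes became 1786 and 1552 when thinned (29 members, so few UMIs per gene), 39 and 20 at 50 CPM, and 129 and 191 at 1 CPM. With 3 or 5 genes needed, a higher UMI minimum, a mitochondrial limit of 5% or none, cells of either sex class, without mitotic cells, with rest cells weighted to the members' depth (92 and 95), with split UMIs (98 and 108), without cells of exactly 3 rule genes in the rest (106 and 113, with *Wnt2* at 3.66 in place of 3.04 on the log2 scale), per-cell means or a pseudocount of 0.1 they stayed within 1.5 times, as they did, chosen after seeing the data, without epithelial-like cells or cells above the 95th percentile of UMIs. Removal of doublets was not run, as none was marked.

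Members against the other cells of cluster 5 gave 157 and 4 genes, and with members of that cluster alone (chosen after seeing the data) 7 and 9. In the first, members of other clusters are set against 1 cluster, and log2 ratios turned to -0.037 (*Kitl*), -0.17 (*Cd34*), -0.34 (*Smoc2*), -0.024 (*Sema3d*), 1.59 (*Matn1*), 2.24 (*Col9a1*), 1.25 (*Nrgn*), 1.52 (*Mia*), 1.75 (*Col9a3*), 1.56 (*Calb1*), 2.29 (*Irx1*), 0.43 (*Msx1*), 1.82 (*Rspo1*), 0.41 (*Hoxd13*), 2.02 (*Cytl1*), 1.81 (*Irx2*), 1.80 (*Col2a1*), 0.83 (*Acan*) and 1.29 (*Matn4*). In the second, *Col9a1* (0.96), *Col9a3* (0.27), *Hoxd13* (0.59), *Cytl1* (0.36), *Irx2* (0.28) and *Col2a1* (0.45) turned. The 7 rule genes stayed 2-fold higher when held out under each alternative run for them, but thinned to 3000 UMIs this rested on 4 to 19 cells a gene, and the interval of *Prss12* (2.65-fold, 0.545 to 7.78) reached below 1. As the 7 genes were chosen together from earlier results, this is a description. The share of members in their leading cluster was 42.1%, and 72.2% at resolution 0.5, 25.8% at 2, 56.6% with rule genes allowed and 55.7% thinned. The shares passing by library without thinning (0.457% at E13.5, 6.43% at E14.5, 3.67% proximal, 1.78% distal) and at 3 genes thinned (0.245%, 2.43%, 0.576%, 0.391%) kept E14.5 highest.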
